A study of Nothobranchius furzeri with 19 samples.

Results

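Trunks of female and male turquoise killifish (*Nothobranchius furzeri*, strain GRZ) were compared at hatching, which the labels give as 0 days post hatching (dph). The members are the libraries labelled female_0d_1 and female_0d_2 and the libraries labelled male_0d_1 to male_0d_3, so 5 of the 19 libraries of the series, with 2 female and 3 male. They are called female 1 and 2 and male 1, 2 and 3 below. All 5 were total RNA from untreated animals of 1 wild-type strain, and the sexes differ only in sex as labelled. The other libraries are whole embryos at 10 days post fertilisation (dpf), trunks at 3 dph and adult gonads at 3 months. A trunk holds gut, liver, muscle, skin, blood and nervous tissue beside a small gonad, and the labels do not say whether a library is 1 larva or a pool. With no statement that the libraries came from separate animals, the p-values measure only the spread between these libraries.

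In fish, the sexes part in the gonad: germ cells of an ovary enter meiosis early, while those of a testis usually do so later. Meiotic chromosomes are held together by cohesin rings that contain germ-line subunits such as Rec8 and Rad21l1. Growing oocytes stop in meiosis and store large amounts of RNA and of egg envelope and yolk-handling proteins. Because a bulk trunk was measured, more cells of a type and more RNA per cell cannot be told apart in any value here.

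Total counts lay between 17324478 and 20218857 per library. Between 23203 and 23634 genes had a count, and the 10 most abundant genes took 10.9% to 13.1% of a library. Replicates differed beyond counting noise, with a chi-square statistic per degree of freedom of 65.9 between the females and of 30.2 to 54.1 between pairs of males. Along the first principal component of the 500 most variable genes, which carried 71.0% of their variance, female 1 lay at -79.1, female 2 at -1.04 and the males between 25.4 and 29.3. Female 1 therefore stood farther from female 2 than female 2 stood from any male on that axis.

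Higher in females were some genes of meiosis, of chromosome segregation and of DNA replication. Beside them was a group of genes that was far higher in female 1 than in female 2. The themes are read from gene lists chosen with earlier results of these data known, and only part of each list passed the test below. Higher in males were genes mostly with a mean normalised count of at least 100, among them *fdps* of the sterol pathway and several genes of gut epithelium. Of 20503 genes tested with DESeq2, 679 had an adjusted p under 0.05 and are referred to as called, which is 3.31% of them. Females were higher in 432 (2.11%) and males in 247 (1.2%). Fold changes are given as log2 of female over male, and their median was 2.33 in the female-higher genes, -1.25 in the male-higher genes and 0.0084 over all genes tested. Female and male libraries were fully apart in 415 of the 432 and in all 247, against 28.9% of all tested genes, and both groups were selected on these same libraries. The stricter quasi-likelihood test of edgeR called 33 of 19997 genes (0.165%), of which 26 were higher in females and 7 in males, and DESeq2 called each of them too. Before adjustment, 2646 genes had a p under 0.05 with DESeq2 and 2500 with edgeR. Without female 1 there were 205 female-higher and 110 male-higher genes, and without female 2 there were 366 and 127. Without male 1, 2 or 3 the female-higher counts were 388, 268 and 331 and the male-higher counts 555, 100 and 129, so without male 1 most calls were male-higher. In all 5 of these fits 71 of the female-higher and 49 of the male-higher genes were called. On simulated counts with 2 against 3 libraries both tools called more unchanged genes than the threshold allows, and DESeq2 more than edgeR. The simulated counts took their means and spread from these same libraries, so they do not give the share of false calls in the real comparison.

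The gene whose name is best known from meiosis led the female-higher genes with a symbol. *rec8* (Nfu_g_1_001081), a meiotic cohesin subunit, had normalised counts of 206 and 283 in females 1 and 2 and of 11.95, 6.52 and 7.68 in males 1, 2 and 3. Both females stood far above all males. Its log2 fold change was 4.80 ± 0.46 (SE), with an adjusted p of 3.75e-21 by DESeq2 and of 0.0190 by edgeR, and it was called in all 5 fits that left out a library. *rad21l1* (Nfu_g_1_001403), another meiotic cohesin subunit, had 95.1 and 102 in females and 8.97, 7.61 and 17.6 in males. The groups did not overlap, at a log2 fold change of 3.12 ± 0.51 (DESeq2 adjusted p = 3.74e-07, edgeR adjusted p = 0.0496). The 2 females differed little in both cohesin genes.

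Other members of the list of meiosis and germ cell genes behaved differently in the females. This list and the gene lists below were chosen with earlier results of these data known. The shares of all tested genes beside them are therefore description and no test of the lists. Of the 13 genes on the meiosis list 10 were tested, of which 5 were female-higher and 1 was male-higher, beside 2.11% and 1.2% of all tested genes, with a median log2 fold change of 2.01 beside 0.0084. Without female 1 only 2 were still female-higher. *pabpc1l* (Nfu_g_1_001543), a poly(A)-binding protein of oocytes in mouse and frog, had 975 in female 1, 158 in female 2 and 64.8, 44.5 and 80.1 in males. Female 1 was thus far above female 2, which was itself above all males. Its log2 fold change was 3.17 ± 0.62 (adjusted p = 6.48e-05), and the adjusted p was 0.385 without female 1 and 0.104 without male 1. *tdrd6* (Nfu_g_1_000089), a tudor protein of germ granules in mouse and zebrafish, had 734 and 253 in females and 94.6, 76.1 and 173 in males (log2 fold change 2.11 ± 0.51, adjusted p = 0.00269, and 0.571 without female 1). *brdt* (Nfu_g_1_000900), a bromodomain protein of meiotic germ cells in mouse, had 227 and 87.9 in females and 45.8, 17.4 and 62.5 in males (log2 fold change 1.91 ± 0.59, adjusted p = 0.0391, and 0.928 without female 1, 0.0595 without male 1 and 0.184 without male 2). In each of these 3 genes female 1 was the higher female.

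Among the uncalled members of that list, *lsm14b* and *taf4b* showed the same order of the females with a wide gap. *lsm14b* (Nfu_g_1_001661), an RNA-binding protein of mouse oocytes, had 120 in female 1, 0.879 in female 2 and 5.98, 3.26 and 3.29 in males (adjusted p = 0.323). Here female 2 lay below all males. *taf4b* (Nfu_g_1_000882), a germ cell subunit of the transcription factor TFIID in mouse, had 109 and 17.6 in females and 16.9, 17.4 and 24.1 in males (adjusted p = 0.240). *spo11* (Nfu_g_1_001497), which cuts DNA to start meiotic recombination, had at most 3 counts in every library. The log2 fold change was 0.26 in *mei4* (Nfu_g_1_000109), -0.18 in *C6H1orf146* (Nfu_g_1_001018), 0.16 in *KLHL10 (2 of 2)* (Nfu_g_1_001432) and 0.18 in *SPA17* (Nfu_g_1_000493). The sexes overlapped in each of these genes. *mei4* and *C6H1orf146* had at most 7 counts in every library and were not tested. The male-higher member was *FOLR4* (Nfu_g_1_000709), a folate receptor family gene whose mouse namesake is a sperm receptor on eggs, with 1171 and 1206 in females and 2776, 4476 and 3409 in males (log2 fold change -1.58 ± 0.28, adjusted p = 6.69e-06). It was called in all 5 fits that left out a library.

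**Figure D1:**
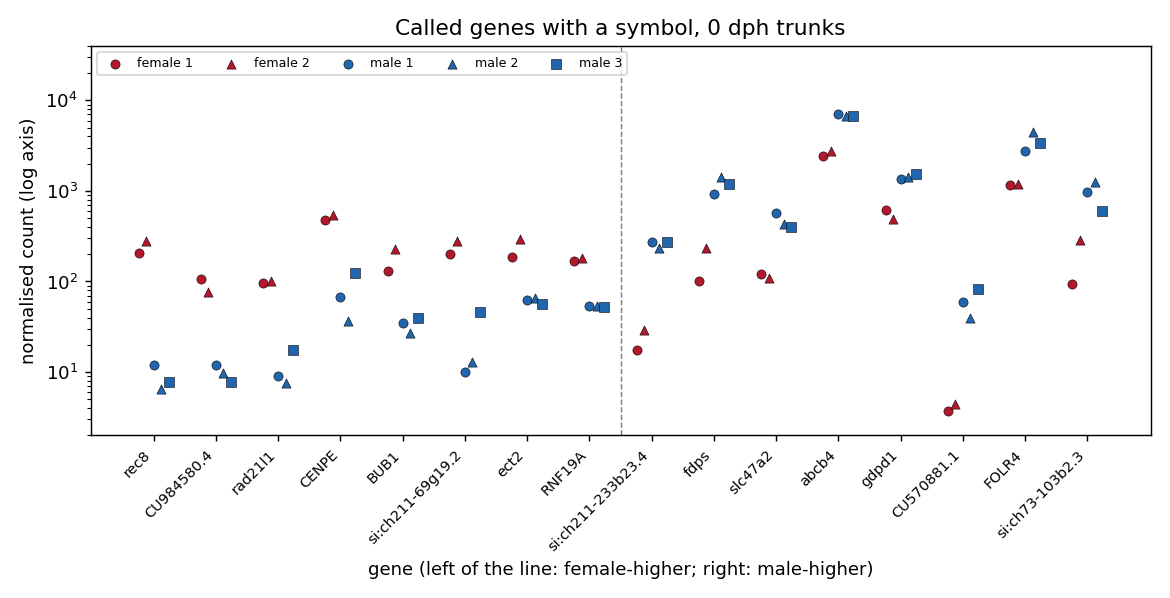
Normalised counts (log axis) of the 8 female-higher and 8 male-higher genes with a symbol and the smallest adjusted p, with 1 point per library, red for females 1 and 2 and blue for males 1, 2 and 3. In all 16 genes the 2 female points lie on one side of the 3 male points, and the females differ most in *si:ch73-103b2.3* (93.3 and 289) and *fdps* (102 and 237).

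Genes of chromosome segregation and cell division were higher in females in part. Of 20 identifiers on that list 19 were tested, and 6 were female-higher and 0 male-higher, beside 2.11% and 1.2% of all tested genes, with a median log2 fold change of 0.42 beside 0.0084. *CENPE* (Nfu_g_1_000450), a kinetochore motor, had 477 and 542 in females and 67.7, 36.9 and 124 in males (log2 fold change 2.74 ± 0.46, adjusted p = 1.09e-06). Both females were more than 3-fold above the highest male. The other 3 identifiers with the symbol *CENPE* were not called, and reads of near-identical copies could have been split between them. *BUB1* (Nfu_g_1_000124), a kinase of the spindle checkpoint, had 130 and 229 in females and 34.9, 27.2 and 39.5 in males (log2 fold change 2.40 ± 0.42, adjusted p = 2.68e-06). *ect2* (Nfu_g_1_000804), which starts cytokinesis, had 185 and 298 in females and 61.8, 65.2 and 56.0 in males (log2 fold change 1.99 ± 0.35, adjusted p = 6.00e-06). Female 2 was the higher female in *BUB1* and *ect2*, and without it their adjusted p was 0.0525 and 0.0710.

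The other 3 called genes of cell division were *cdca5* (Nfu_g_1_001685), a cohesin protector, and the condensin subunits *smc4* (Nfu_g_1_000255) and *ncapd2* (Nfu_g_1_001225). Their log2 fold changes were 2.18 ± 0.58, 1.23 ± 0.34 and 1.105 ± 0.27, with adjusted p of 0.00931, 0.0126 and 0.00282. Each lost the call in 3 or 4 of the 5 fits without a library, and without female 2 their adjusted p was 0.316, 0.668 and 0.379. For *cdca5* and *ncapd2* it was 0.357 and 0.129 without female 1. Cyclin D1 (*ccnd1*, Nfu_g_1_001696), a driver of the cell cycle in many cell types, had 644 and 588 in females and 635, 846 and 553 in males, so the sexes overlapped. Without female 2 only 1 gene of this list was called.

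DNA replication and repair genes leaned to females as well. Of 20 identifiers 19 were tested, 6 were female-higher and 0 male-higher, beside 2.11% and 1.2% of all tested genes, and 18 of the 19 had a positive log2 fold change, with a median of 0.89 beside 0.0084. *rad54b* (Nfu_g_1_001228), a motor of recombination repair, had 112 and 147 in females and 34.9, 22.8 and 39.5 in males (log2 fold change 2.00 ± 0.41, adjusted p = 1.46e-04). *rrm1* (Nfu_g_1_000449), the large subunit of ribonucleotide reductase, had 556 and 441 in females and 120, 213 and 199 in males (log2 fold change 1.49 ± 0.34, adjusted p = 0.00105). The sexes did not overlap in either gene, and the adjusted p was 0.154 for *rad54b* without female 2 and 0.173 for *rrm1* without female 1. The further called genes were *rad54l* (Nfu_g_1_000802), a relative of *rad54b*, the clamp loader subunit *dscc1* (Nfu_g_1_001721), the primase subunit *prim1* (Nfu_g_1_001527) and the single-strand binding protein *rpa1* (Nfu_g_1_000665), with log2 fold changes of 1.40, 1.59, 1.47 and 1.12. Most calls of this list were lost when either female was left out. The edgeR test called 0 genes of the cell division and the DNA replication lists, beside 0.165% of all tested genes.

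Other female-higher genes with the smallest adjusted p have no role that can be given here. *CU984580.4* (Nfu_g_1_000120) had 105 and 76.5 in females and 11.95, 9.78 and 7.68 in males (log2 fold change 3.21 ± 0.51, adjusted p = 1.54e-07). *si:ch211-69g19.2* (Nfu_g_1_001144) had 202 and 280 in females and 9.96, 13.04 and 46.1 in males (adjusted p = 2.68e-06). For *CU655961.2* (Nfu_g_1_000520) and *zgc:193690* (Nfu_g_1_001879) the log2 fold changes were 2.15 and 2.63, and the adjusted p was 0.0638 for the former without female 2 and 0.365 for the latter without female 1. Among genes without a symbol Nfu_g_1_012476 had the smallest adjusted p (2.95e-25), at 586 and 1031 in females and 26.9, 22.8 and 46.1 in males, and Nfu_g_1_020188 came next, at 302 and 278 in females and 16.9, 11.95 and 31.8 in males. The females did not overlap with the males in any of these 6 genes.

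Among male-higher genes with a symbol, an uncharacterised gene came first and a gene of the isoprenoid pathway second. *si:ch211-233b23.4* (Nfu_g_1_014802) had 17.7 and 29.0 in females and 270.0, 232 and 269.9 in males (log2 fold change -3.46 ± 0.36, DESeq2 adjusted p = 3.98e-18, edgeR adjusted p = 0.0260). *fdps* (Nfu_g_1_001062), farnesyl diphosphate synthase of the pathway to cholesterol, had 102 and 237 in females and 934, 1419 and 1197 in males (log2 fold change -2.80 ± 0.40, adjusted p = 1.79e-09). All males were above both females in the 2 genes, and each was called in all 5 fits that left out a library. The edgeR adjusted p of *fdps* was 0.0512. Of the 24 identifiers on the list of sterol and lipid synthesis, 22 were tested, 2 were male-higher and 0 female-higher, beside 1.2% and 2.11% of all tested genes, with a median log2 fold change of -0.24 beside 0.0084. Without either female 1 of the 2 was called. The other called member was *POR (2 of 2)* (Nfu_g_1_000540), the electron donor of cytochrome P450 enzymes, with 1953 and 2481 in females and 3112, 4741 and 4878 in males (log2 fold change -0.94 ± 0.30, adjusted p = 0.0496), and it was called only in the fit without male 1. Fatty acid synthase (*fasn*, Nfu_g_1_017949) had 69.0 and 53.6 in females and 63.8, 66.3 and 64.7 in males, with overlapping sexes.

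Transporters and enzymes of epithelia followed. *slc47a2* (Nfu_g_1_000329), a drug and toxin exporter, had 121 and 109 in females and 566, 431 and 404 in males (log2 fold change -2.02 ± 0.29, adjusted p = 4.91e-09). *abcb4* (Nfu_g_1_001329), an ABC exporter, had 2412 and 2740 in females and 7131, 6778 and 6810 in males (log2 fold change -1.42 ± 0.21, adjusted p = 1.16e-08). *gdpd1* (Nfu_g_1_000718), a phosphodiesterase of lipids, had 612 and 492 in females and 1351, 1416 and 1548 in males (log2 fold change -1.38 ± 0.24, adjusted p = 2.68e-06). Replicates of either sex lay close together in these 3 genes, and each was called without any 1 library. The acidic chitinase *chia.6* (Nfu_g_1_001997) had 1656 and 2342 in females and 4082, 4902 and 4394 in males (adjusted p = 8.42e-04), and *MYO7B (1 of 2)* (Nfu_g_1_000806), a brush border myosin in mammals, had 1372 and 2005 in females and 3470, 3950 and 5149 in males (adjusted p = 0.00110). Without female 1 their adjusted p was 0.243 and 0.175. Several identifiers share the symbol *chia.6*, so their counts are uncertain.

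The gut marker list, which includes *chia.6* itself, had a lower sum in both females than in every male. The 15 identifiers of the gut list summed to 9530 and 9794 normalised counts in females and to 13468, 25690 and 20667 in males, and 3 of the 13 tested were male-higher (beside 1.2% of all tested genes), *chia.6*, a copy of *chia.3* (Nfu_g_1_001861) and the intestinal cadherin *cdh17* (Nfu_g_1_001323). The list was at 0 in some library in 2 of its 15 identifiers, both named *mep1b*. Of the 13 tested, 10 had a negative and 3 a positive log2 fold change. Not all members set male 1 above the females. *SI* (Nfu_g_1_000389) had 927 and 1248 in females and 679, 2580 and 2456 in males. The 9 liver markers summed to 25788 and 54435 in females and to between 37212 and 45784 in males, with 0 calls. What part the amount of gut in a library had in the male-higher calls was not tested.

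Other male-higher genes with the smallest adjusted p were uncharacterised. *CU570881.1* (Nfu_g_1_012125) had 3.73 and 4.40 in females and 59.8, 39.1 and 83.4 in males (log2 fold change -3.90 ± 0.69, adjusted p = 3.77e-06). *si:ch73-103b2.3* (Nfu_g_1_001111) had 93.3 and 289 in females and 963, 1255 and 595 in males (adjusted p = 3.30e-04). *si:ch211-208f21.5* (Nfu_g_1_005006) had 19.6 and 7.03 in females and 63.8, 64.1 and 80.1 in males (adjusted p = 6.32e-04, and 0.168 without female 2). The 2 genes without a symbol and with the smallest adjusted p were Nfu_g_1_018764, at 876 and 973 in females and 4212, 3945 and 4153 in males, and Nfu_g_1_004110, at 464 and 387 in females and 2110, 2250 and 2607 in males. Their DESeq2 adjusted p (2.34e-20 and 4.50e-20) was smaller than that of any male-higher gene with a symbol. Both were called in all 5 fits without a library and by edgeR (adjusted p = 0.0260 for each).

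Genes of BMP signalling were read as a list as well. BMP signalling is the pathway of the growth factor Gdf6, and the study gives its Y-chromosomal copy, *gdf6Y*, as the male sex determinant. Only 3.31% of all tested genes were called, so uncalled members of a short list say little about the pathway. Of 13 list members 12 were tested, 1 was female-higher and 0 male-higher, beside 2.11% and 1.2% of all tested genes, with a median log2 fold change of 0.065 beside 0.0084. The called gene was the type II receptor *bmpr2b* (Nfu_g_1_001410), with 139 and 78.3 in females and 33.9, 34.8 and 50.5 in males (log2 fold change 1.45 ± 0.44, adjusted p = 0.0335), and it was not called in any of the 5 fits that left out a library. Of the transcriptional targets, *id1* (Nfu_g_1_021185) had 833 and 1111 in females and 1203, 925 and 840 in males (log2 fold change -0.025 ± 0.29, adjusted p = 0.996), and *id3* (Nfu_g_1_015039) had 1041 and 1630 in females and 1322, 833 and 1092 in males. The receptor-activated *smad9* (Nfu_g_1_001408) had 16.8 and 14.9 in females and 7.97, 11.95 and 9.88 in males (log2 fold change 0.68 ± 0.70, adjusted p = 0.845). At these counts a 2-fold difference in *smad9* was not detectable.

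Among the genes that the study also followed by RT-qPCR, 8 have a symbol in the tables used here, and 3 of these were female-higher and 2 male-higher, beside 2.11% and 1.2% of all tested genes. Male-higher were *si:ch211-233b23.4* and *si:dkey-11o15.10*. Female-higher beside *rec8* were *RNF19A* (Nfu_g_1_017372), a ubiquitin ligase, and *sybu* (Nfu_g_1_016781), a kinesin adaptor. *RNF19A* had 167 and 181 in females and 53.8, 53.2 and 52.7 in males (log2 fold change 1.71 ± 0.32, adjusted p = 1.91e-05). Its replicates were the closest of the 8 genes in males, and its adjusted p without female 1 was 0.0447 and without female 2 0.0692. *sybu* had 669 and 403 in females and 318, 176 and 191 in males (log2 fold change 1.23 ± 0.38, adjusted p = 0.0409). It was not called without female 1, male 2 or male 3, with adjusted p of 0.814, 0.277 and 0.258. *pctp* (Nfu_g_1_016576), a phosphatidylcholine carrier, had 14.9 and 8.79 in females and 44.8, 28.2 and 42.8 in males, without overlap but with an adjusted p of 0.0725. The study worked with transcriptomes of this series, so the directions of these genes are not taken as independent evidence.

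The direction of the calls differed between levels of expression. Genes were put in classes by their mean normalised count over the 5 libraries, which grows with gene length as well as with RNA abundance. At a mean of 10 to 100, 239 of 7024 tested genes were called (3.40%), and 209 of the calls were female-higher and 30 male-higher. At 100 to 1000, 299 of 10198 were called (2.93%), 196 female-higher and 103 male-higher. At 1000 and over, 138 of 2499 were called (5.52%), 24 female-higher and 114 male-higher. The female-higher share of the calls thus fell from 87.4% over 65.6% to 17.4%. Under a mean of 10 only 782 of 5116 genes were tested and 3 were called.

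Sizes among the called genes differed as well between the classes. The median log2 fold change of male-higher genes was -2.21, -1.29 and -1.07 in the upper 3 classes. That of female-higher genes was 2.46 and 1.97 at 10 to 100 and at 100 to 1000, but 9.06 at 1000 and over, where 15 of the 24 genes were at least 16-fold higher in female 1 than in female 2. The smallest absolute log2 fold change called was 1.16, 0.72 and 0.67 in the upper 3 classes. Smaller differences could thus be called at higher levels, and the medians do not show how much all genes of a class differed. When the classes were set by the mean of the male libraries instead, 7 of the 145 called genes at 1000 and over were female-higher, and 106 female-higher and 0 male-higher genes were called under 10. Both ways of setting the classes use libraries of the comparison, and edgeR called 14, 16 and 3 genes in the upper 3 classes.

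**Figure D2:**
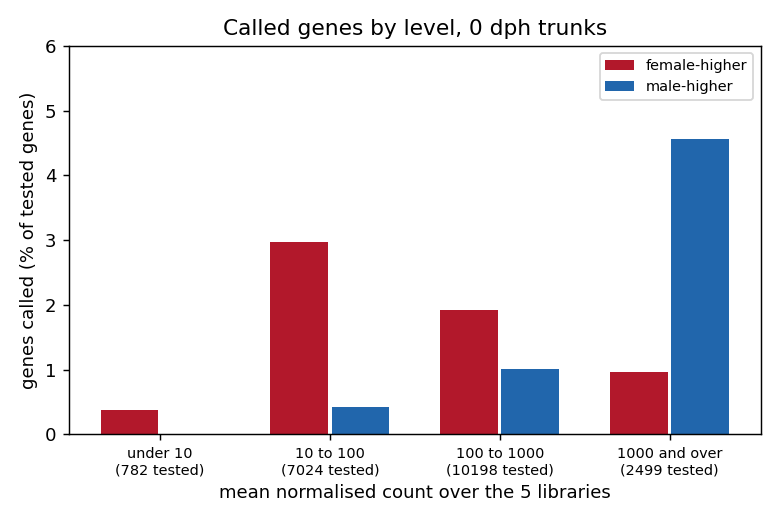
Percentage of tested genes called female-higher (red bars) and male-higher (blue bars) in 4 classes of mean normalised count, with the number of genes tested under each class. Female-higher calls fall from 2.98% at 10 to 100 to 0.960% at 1000 and over, while male-higher calls rise from 0.427% to 4.56%.

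On/off genes were those with at most 3 raw counts in every library of 1 sex and at least 10 in every library of the other. By this rule 20 genes were on in females (0.0805% of the 24838 genes with a count) and 4 were on in males (0.0161%). The rule leaves no overlap by its construction. Of the 20 female-on genes 16 were called by DESeq2 and 2 by edgeR. All 4 male-on genes were called by DESeq2 and 0 by edgeR. Of all tested genes DESeq2 called 3.31% and edgeR 0.165% in either direction. The on/off genes were chosen by their counts in these same libraries, so these calls are no test of them. None of the 20 has a symbol here. In 10 of them the females were within 4-fold of each other, with raw counts between 10 and 139. In 7 others female 1 held 827 to 6305 raw counts and female 2 only 13 to 19, beside at most 3 in each male. Against a floor of 3 counts per male library, the means over the females were at least 3.29-fold to 927-fold higher, and the upper end comes from female 1. In the 3 dph trunks, which the rule did not use, all 3 females were above all 3 males in 17 of the 20 genes by raw counts. Among the 24838 genes the share was 16.7% by normalised counts, so the 2 measures differ.

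The only on/off gene with a symbol was on in males. *si:dkey-11o15.10* (Nfu_g_1_015428) had 0 raw counts in both females and 45, 13 and 21 in males 1, 2 and 3, an at least 10.1-fold higher mean in males (adjusted p = 5.58e-04, and 0.0583 without female 1). At 3 dph it had at most 1 count in each female and 47 to 77 in each male. The 3 others, named here after their values were seen, were Nfu_g_1_012184 with 3 and 1 counts in females and 27, 51 and 41 in males, Nfu_g_1_015725 with 0 and 1 against 30, 47 and 21, and Nfu_g_1_024771 with 3 and 1 against 24, 23 and 41. All 3 dph males were above all 3 dph females in 3 of the 4 by raw counts, against 22.7% of the 24838 genes with a count by normalised counts. Nfu_g_1_015725 had 13 to 36 counts in females and 8 to 158 in males at 3 dph. The on/off rule asks for every library, so leaving 1 out can only keep or raise a count of such genes. Leaving out either female raised the male-on count to 12. The female-on count rose to 35 without female 1, to 156 without female 2 and to between 34 and 42 without 1 male.

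The females were apart in a small number of genes by a very large amount. Over 15370 genes with a mean of at least 50, 7.03% were over 2-fold apart between females 1 and 2, against 10.6%, 10.2% and 3.85% for the 3 pairs of males. The usual spread between the females was thus inside the range of the males. The SD of the log2 ratio was 0.78 between the females, above the 0.68, 0.66 and 0.53 of the male pairs. At least 4-fold higher were 156 genes in female 1 (1.01%) and 94 in female 2 (0.612%), and 16-fold or more 92 in female 1 and 13 in female 2. In the male pairs the numbers of genes at least 16-fold higher in a library lay between 7 and 16. Set against every other library and not only female 2, female 1 was at least 16-fold higher in 85 genes, and none of the other 4 libraries was so in any gene (0 each).

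**Figure D3:**
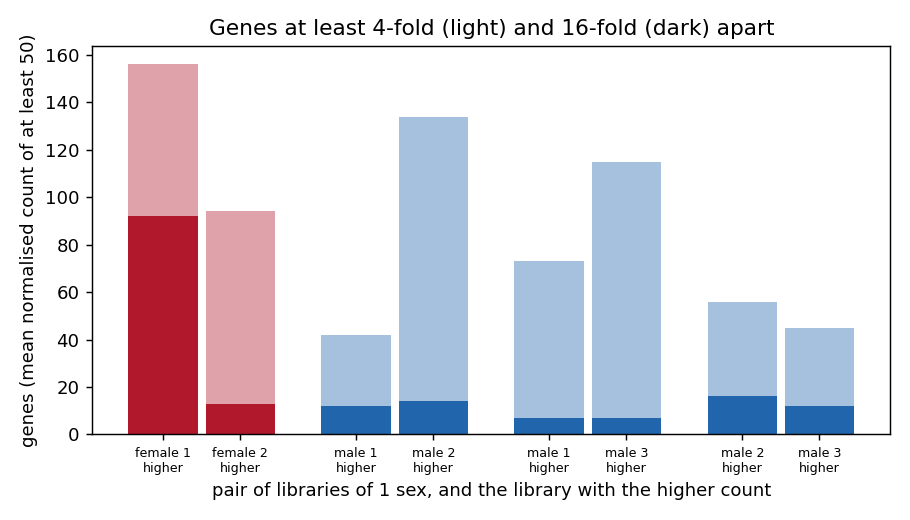
Number of genes with a mean normalised count of at least 50 that were at least 4-fold (light bars) and at least 16-fold (dark bars) higher in the named library of each same-sex pair, red for the female pair and blue for the 3 male pairs. Female 1 has 92 genes at least 16-fold above female 2, and no other library of a pair has more than 16.

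The 92 genes were also high in 3 dph females and in the adult ovary. They held 2.07% of all counts in female 1, 0.0190% in female 2 and 0.00497% to 0.00517% in males. In 3 dph trunks they held 5.32% to 7.84% of the counts of females and 0.0150% to 0.0182% of males, and in adults 22.0% of the ovary library and 0.0496% of the testis library. All 3 dph females were above all 3 dph males in 86 of the 92 (93.5%), against 19% of the 15370 genes. The ovary was at least 10-fold above the testis in 86 (93.5%), against 5.43%. Those libraries played no part in choosing the genes, although the ovary and the testis are 1 library each. In whole embryos at 10 dpf the genes held 0.0243% to 0.0262% in females and 0.0216% to 0.0270% in males, so the share in female 2 at hatching was below that of both sexes at 10 dpf and just above that of 3 dph males.

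**Figure D4:**
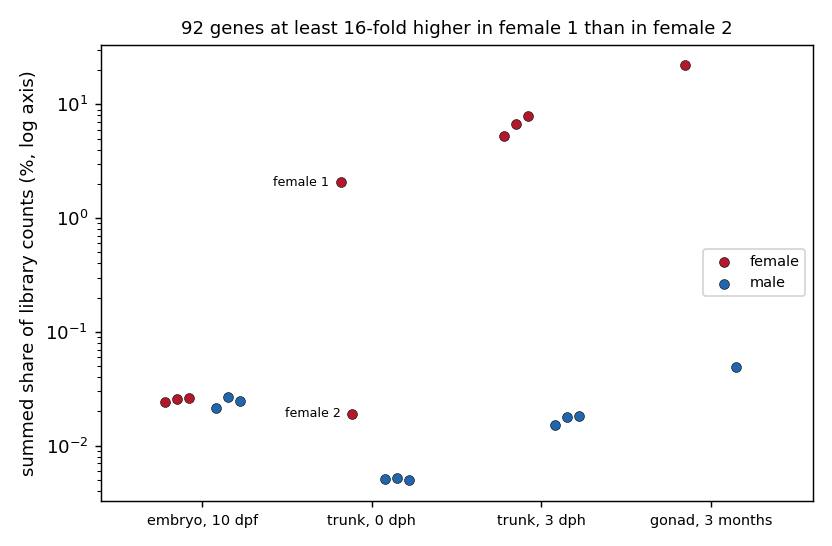
Share of all library counts (percent, log axis) held by the 92 genes at least 16-fold higher in female 1 than in female 2, with 1 point per library of the series, red for females and blue for males. Female 1 at 0 dph (2.07%) lies near the 3 dph females (5.32% to 7.84%), whereas female 2 (0.0190%) lies near the 3 dph males.

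In many of these genes female 2 was also above the males. It was above every male in 65 of the 92 (70.7%), against 28.5% of the 15370 genes, and more than 2-fold above the highest male in 46, against 2.39%. These shares of the 15370 genes were not matched to the low level of the 92 genes in female 2 and the males. At a low level a 2-fold excess comes more easily from counting noise, so the contrast does not show how unusual female 2 was. The normalised counts of the 92 genes had a median of 1180 in female 1, of 14.1 in female 2 and of 8.97 in the highest male. Female 2 held between 0% and 5.88% of the level of female 1, with a median of 0.984%. DESeq2 called 66 of them female-higher, beside 2.11% of all tested genes, and edgeR called 0, beside 0.165% in either direction. The 92 were chosen on these same libraries by their level in female 1, so these counts are no test of them. Of the 156 genes at least 4-fold higher in female 1, 134 (85.9%) were higher in all 3 dph females than in all 3 dph males, and 117 were at least 10-fold higher in the ovary than in the testis. Of the 94 genes at least 4-fold higher in female 2, 1 (1.06%) and 13 (13.8%) were so, beside 19% and 5.43% of all genes compared.

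Only 3 of the 92 genes have a symbol. A copy of *krt5* (Nfu_g_1_000844), a keratin, had 6828 in female 1, 67.7 in female 2 and 0.996, 0 and 16.5 in males (log2 fold change 9.21 ± 2.65, adjusted p = 0.0207, and 0.9999 without female 1). It had 26901 to 40580 raw counts in 3 dph females, 39 to 50 in 3 dph males, 85823 in the ovary and 70 in the testis. The other copy of *krt5* (Nfu_g_1_001437), a skin keratin, had 86363 and 113305 in females and 22723, 71230 and 95804 in males and was not called. *ace* (Nfu_g_1_017409), angiotensin-converting enzyme, had 1767 in female 1, 29.9 in female 2 and 9.96, 31.5 and 26.3 in males (log2 fold change 5.31 ± 1.63, adjusted p = 0.0371, and 0.9999 without female 1). Female 2 lay among the males there, and the ovary held 67509 raw counts against 55 in the testis. *CR626889.2* (Nfu_g_1_000371) had 422 in female 1 and at most 16.9 elsewhere at 0 dph, but unlike the others it had 0 counts in the ovary and 16 to 28 in 3 dph females, and it was not called (adjusted p = 0.437).

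With smaller gaps, *matn4* (Nfu_g_1_021360), a cartilage matrix protein, had 223 and 22.0 in females and 26.9, 16.3 and 13.2 in males (adjusted p = 0.0259, and 0.9999 without female 1), and *CR925772.2* (Nfu_g_1_000622) had 425 and 40.4 in females and 27.9, 49.98 and 17.6 in males (adjusted p = 0.204). In both genes female 1 alone stood apart.

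The gap was wider in the female-higher genes than in the male-higher ones. Of the 432 female-higher genes 247 (57.2%) were within 2-fold between the females, 69 were 2- to 4-fold apart, 111 were at least 4-fold higher in female 1 and 5 at least 4-fold higher in female 2. Of the 247 male-higher genes 211 (85.4%) were within 2-fold, 36 (14.6%) were more than 2-fold apart and 0 were 4-fold apart. With a mean of at least 50, 28 of 227 male-higher genes (12.3%) were over 2-fold apart, above the 7.03% of all genes compared. The median log2 fold change was 1.80 in the female-higher genes within 2-fold and 6.46 in those at least 4-fold higher in female 1. The 111 were set apart by their level in female 1, so whether they stayed called without 1 female followed in part from that choice. Of the 247 within 2-fold, 94 were still called without female 1 and 76 without female 2.

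**Figure D5:**
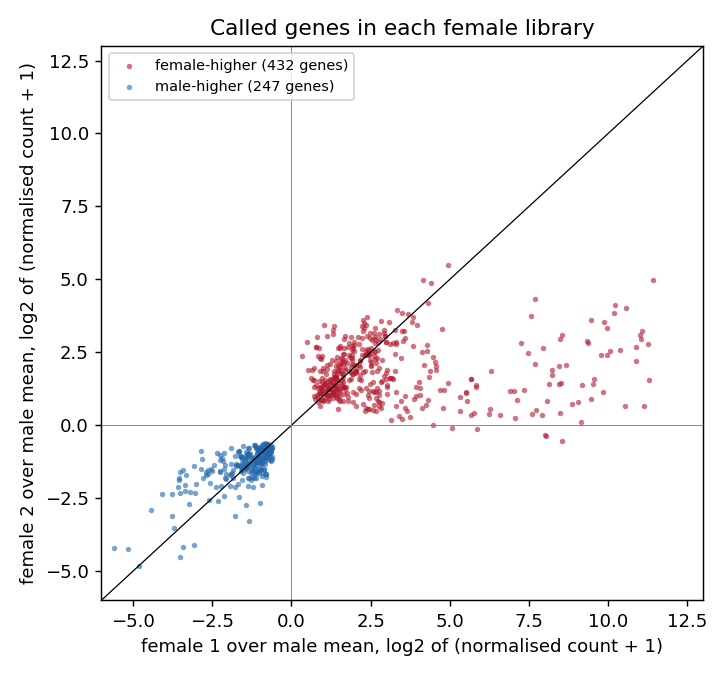
Each called gene by its level in female 1 (x axis) and female 2 (y axis) over the mean of the males, both as log2 of the normalised count plus 1, red for the 432 female-higher and blue for the 247 male-higher genes, with the line of equality. Most points lie along the line, and an arm of female-higher genes runs to the right, with a high level in female 1 and a level in female 2 nearer to that of the males.

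Female-higher genes with like levels in both females were read in the same libraries. Of the 190 within 2-fold and with a mean of at least 50, all 3 dph females were above all 3 dph males in 96 (50.5%), against 19% of all genes compared. The ovary was at least 10-fold above the testis in 14 of the 190 (7.37%), against 5.43%. *rec8*, *CENPE* and *RNF19A* are among them.

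In the other direction, 4 of the 6 genes with a symbol that were highest in female 2 over female 1 were of blood, heart and vessels. *hbbe1.1* (Nfu_g_1_007560), an embryonic beta globin, had 75.6 in female 1, 989 in female 2 and 143, 51.1 and 79.0 in males. *hbbe2* (Nfu_g_1_023228), another beta globin, had 2519 and 25288 in females and 1877, 550 and 1331 in males (adjusted p = 0.0814). Female 2 was far above every other library in both globins. In *hbbe2* female 1 was also above every male, while in *hbbe1.1* it lay among the males. The 4 identifiers of the red blood cell list summed to 3899 in female 1, 30992 in female 2 and 926 to 2967 in males, so the sums did not overlap. All 4 log2 fold changes were positive (median 2.45), against 10406 of the 20503 genes tested. Of the 4, 0 were called, beside 3.31% of all tested genes.

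Some heart and vessel genes split the libraries in another way. *tnnc1a* (Nfu_g_1_001375), a cardiac troponin C, had 162 in female 1 and 1583 in female 2, and 1094, 128 and 944 in males 1, 2 and 3. *stab2* (Nfu_g_1_011842), a scavenger receptor of vessel lining cells, had 78.4 and 624 in females and 823, 89.1 and 802 in males. *vmhcl* (Nfu_g_1_020291), a ventricular myosin, had 923 and 3400 in females and 2135, 533 and 2706 in males. Female 1 and male 2 were low in all 3 genes, and female 2, male 1 and male 3 were high, so this split crossed the sexes and none of the 3 was called. On the striated muscle list with *tnnc1a* and *vmhcl*, *vmhc* (Nfu_g_1_020456) did not follow this split. It had 649 and 601 in females and 266, 352 and 382 in males. DESeq2 called it female-higher (adjusted p = 0.0327), while edgeR did not (adjusted p = 0.158). *cart2* (Nfu_g_1_022088), a neuropeptide, had 83.0 and 448 in females and 61.8, 17.4 and 41.7 in males (log2 fold change 2.72 ± 0.68, adjusted p = 0.00427, and 0.9998 without female 2 and 0.112 without male 1), and *zgc:154058* (Nfu_g_1_001022) had 70.0 and 324 in females and 98.6, 32.6 and 48.3 in males (adjusted p = 0.147).

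Markers of several other cell types of the trunk differed between libraries within a sex. The 13 striated muscle identifiers summed to 7435 and 13051 in females and to 8575, 5530 and 9976 in males. The 10 skin identifiers summed to 113047 and 133205 in females and to 38927, 104574 and 123384 in males, with male 1 lowest. Neuron markers summed to 2967 and 2733 in females and to 4171, 2184 and 2164 in males, with male 1 highest. The 9 identifiers of cartilage and connective tissue summed to 3829 and 3207 in females and to 2257, 2527 and 2106 in males, so the sums did not overlap. All 9 log2 fold changes were positive, against 10406 of the 20503 genes tested, and they ran from 0.016 to 2.70 (median 0.28). The largest member in both females was *col2a1a* (Nfu_g_1_001498). It had 1516 and 1244 in females and 333, 847 and 586 in males (DESeq2 adjusted p = 0.0553). Only *matn4* was called, in which female 1 alone was high and female 2 lay among the males. In the retina and lens list, whose tissue should be missing from a trunk, the sums were 86.2 to 119 and 9 of 19 identifiers were at 0 in some library, among them the 3 copies of rhodopsin (*rho*). Called members of the marker lists other than gut were the muscle gene *vmhc* (Nfu_g_1_020456), *matn4*, the keratin *krt5* (Nfu_g_1_000844) and the claudin *cldne* (Nfu_g_1_016313), all female-higher. These were 1 of 13 tested in striated muscle, 1 of 9 in cartilage and 2 of 10 in skin, beside 2.11% of all tested genes. The called copy of *krt5* belongs to the genes described above that were far higher in female 1 and in the ovary, so it need not mark skin. The edgeR test called 0 members of the striated muscle, cartilage, skin and gut lists, beside 0.165% of all tested genes. What part tissue composition had in the calls was not tested.

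Across the 15370 genes the log2 ratio of female 1 to female 2 had a Pearson r of -0.10 and a Spearman rho of -0.34 with the change in males from 0 to 3 dph. The step in males from whole embryos at 10 dpf to trunks at 0 dph mixes age with the part of the body sampled. With that step the values were -0.063 and -0.044. These are correlations across genes, which are not independent replicates. Without the 92 genes the first pair was -0.31 and -0.36. Genes that rose with age in males thus tended by rank to be lower in female 1 than in female 2, while the 92 genes, high in 3 dph females, were higher in female 1.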

How the data were processed

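RNA-seq counts of 5 trunk libraries at 0 dph were compared, and other libraries of the series were used for description. Per the labels, QIAzol was used for RNA, a TruSeq kit for libraries and a HiSeq in rapid mode for sequencing. The authors filtered reads with sga, mapped them with STAR and counted them per gene with summarizeOverlaps, and the submitters' processing notes name bcl2fastq 1.8.4. The deposited values are raw counts over 26740 genes, and 0 columns were without a sample. Counting mode and use of strand are not given in the sources used here, so counts of overlapping or near-identical genes are uncertain.

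Sexes were compared with DESeq2 (version 1.42.0, R 4.3.3), the tool named in the study's methods, on genes with at least 1 count, with sex as the only term, independent filtering and a Benjamini-Hochberg adjusted p under 0.05. Normalised counts are counts divided by median-of-ratios size factors, and values are single libraries or log2 fold change ± SE (n = 2 females, 3 males). The edgeR quasi-likelihood test (version 4.0.16) was an alternative. Gaps between libraries used log2 of the normalised count plus 1. Scripts were tested on simulated data, where both tests called more unchanged genes than their threshold allows, DESeq2 more than edgeR. Shares of all genes given beside gene sets in other libraries were added after seeing the data.

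Symbols are those of zebrafish orthologs in the study's supplement, used as names only, for 2671 genes, which are the first by identifier and those with the smallest p at 10 dpf. Genes without a symbol, the majority, are given by number. Named are the 12 genes per direction with a symbol and the smallest adjusted p, called list members, genes followed by RT-qPCR, on/off genes with a symbol, 2 genes per direction without a symbol, and the 6 genes with a symbol and the widest gap between females in each direction. *lsm14b*, *taf4b*, *spo11*, *mei4*, *C6H1orf146*, *KLHL10 (2 of 2)*, *SPA17*, *ccnd1*, *fasn*, *id3*, *SI*, *vmhcl*, *col2a1a* and the second copy of *krt5* were added after their values were seen. Members and lists were chosen with earlier results of these data known. Lower bounds on folds hold for counting error alone. The thresholds of 4-fold and 16-fold between the females were set after seeing the data, as were the reading of those genes in other libraries, the sums of marker lists and the count of calls without genes 4-fold apart.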

Additional observations from a re-analysis of the deposited data

How the results depend on the processing

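With 2 females, female 1 or female 2 decides many calls, and the cause of their difference was not tested. The 432 female-higher and 247 male-higher calls became 26 and 7 with edgeR and 1105 and 1047 in 1 fit over 11 trunk libraries, and TMM factors, at least 10 counts, no independent filtering and an additional 2-fold threshold kept them within 1.5 times. Leaving out 1 library gave 205 to 388 and 100 to 555. Without genes 4-fold apart between the females, 316 and 247 remained. Samples with the same replicate number did not deviate together (correlations -0.13 and -0.24), and a fit with the replicate block gave 179 female-higher and 62 male-higher genes.

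Called genes by level were 3, 239, 299 and 138 from the lowest class up, 0, 14, 16 and 3 with edgeR, and 106 in the lowest and 150 in the third class with classes set by the male mean. The 20 female-on and 4 male-on genes became 0 and 1 with no count allowed in the low sex, 6 female-on with at least 20 counts, and 34 to 156 female-on and 5 to 12 male-on without 1 library. By the on/off rule, leaving out a library can only keep or raise these counts. The share of genes over 2-fold apart between the females and the rank correlation of the gap stayed within the spread between male libraries.

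Of the lists, edgeR called 2 female-higher and 0 male-higher meiosis genes, 0 of cell division, of DNA replication, of sterol synthesis and of BMP signalling, and 1 in each direction of the genes followed by RT-qPCR. It called only 0.165% of all tested genes, so 0 calls in a short list say little about the list. Without 1 library the female-higher calls were 2 to 7 in meiosis, 1 to 5 in cell division, 1 to 5 in DNA replication, 0 in BMP signalling and 2 to 3 in the RT-qPCR list, and the male-higher calls were 1 to 3 in sterol synthesis, 1 in meiosis and 1 to 2 in the RT-qPCR list. Of the named genes, log2 fold changes turned for *id1* without female 1 or male 1 (range over libraries left out -0.25 to 0.16), *CR626889.2* (-1.96 to 7.004) and *stab2* (-2.87 to 0.12) without female 1, *tnnc1a* (-2.15 to 1.13) without female 2 or male 2, and *hbbe1.1* (-0.27 to 3.43) without female 2. With all libraries none of these was called.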
